A study of Mus musculus with 6 samples.

Results

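Genes tied by human genetics or pathology to Alzheimer and Parkinson disease were examined in whole-brain RNA of mice transgenic for SOD1-G85R and of wild-type (WT) mice. SOD1-G85R is a mutant form of superoxide dismutase 1 that causes amyotrophic lateral sclerosis, a disease of motor neurons. The genes were chosen by name from a list of 7 amyloid, tau and Alzheimer or Parkinson risk genes, of which 5 were measured among the 770 genes of the table, namely Mapt, Psen2, Bin1, Pink1 and Cd33. App and Sorl1 were not analysed here. All 5 measured genes passed the filter on low values, and every one of them lay above it in all 6 samples.

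The SOD1-G85R group held 3 samples of transgenic mice and the WT group 3 samples of wild type mice, all of the C57BL/6 background and titled day 10. Neither the starting point of the day count, the promoter of the transgene nor the animal behind each replicate is stated in the labels, so a p-value here reflects the spread among these 6 samples, which may be technical. Expression was read with NanoString, a method that counts colour-coded probes bound to RNA with no amplification step, and values are given below as the deposited normalized counts. The genotype was not checked against the transgene, since Sod1 was not analysed here.

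These genes act at different points of neurodegenerative disease. Mapt encodes tau, a protein that binds and stabilises axonal microtubules and that forms the tangles of Alzheimer disease. Psen2 encodes presenilin 2, which can serve as the catalytic subunit of gamma-secretase, the enzyme that releases amyloid beta from its precursor. Bin1 encodes a membrane-bending adaptor of endocytosis, is expressed in neurons, oligodendrocytes and microglia, and lies at a human risk locus for late-onset Alzheimer disease. Pink1 encodes a mitochondrial kinase that marks damaged mitochondria for removal, and its loss causes recessive Parkinson disease in humans. Cd33 encodes a sialic acid-binding receptor of myeloid cells, which in the brain are mainly microglia, and its human counterpart is a further risk locus for Alzheimer disease.

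Implied total counts, the summed values divided by what 1 count was worth in a sample, ranged from 468719 to 1022648 in SOD1-G85R samples and from 689748 to 970301 in WT samples. SOD1-G85R replicate 2 stood apart. Its log2 correlations with the other samples, across the 712 genes tested, were 0.824 to 0.834, against 0.956 to 0.984 among the other 5, and genes are not independent replicates for such values. Its median value over all genes was 332 normalized counts, against 173 and 212 in SOD1-G85R replicates 1 and 3 and 181 to 208 in WT samples. All 13 measured genes of an interferon response list were highest in that sample. The Y-linked gene Uty was at 466 in SOD1-G85R replicate 2, at 684 and 478 in WT replicates 1 and 2, and between 7.85 and 11.2 in the other 3 samples. Y-linked signal was thus mixed within the groups and unequal between them. The SOD1-G85R sample that stood apart was also the only one of its group with that signal. Fold changes of the 5 genes are therefore given with and without SOD1-G85R replicate 2. Markers fixed for neurons (7 of 21 measured) and oligodendrocytes (15 of 18 measured) were checked against the label of whole brain, and none was at the floor, the lowest value of a sample, in all 6 samples.

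None of the 5 genes passed the test between SOD1-G85R and WT brain, and in 4 of them the groups overlapped. Their log2 fold changes (SOD1-G85R minus WT, on log2 of the value plus 1) lay between -0.28 and 0.14, 2 above and 3 below 0, with a median of -0.012. Over all 712 genes tested, the median was 0.15, with 446 positive and 266 negative. Relative to that median, Mapt stood at -0.0054, Psen2 at -0.040, Bin1 at -0.35, Pink1 at -0.43 and Cd33 at -0.16. The median over all genes tested was 0.0071 without SOD1-G85R replicate 2, so its height rested on that sample. None of the 5 genes passed limma's test at an adjusted p of 0.05, where 0 of 712 genes (0%) did so. At an unadjusted p of 0.05, again 0 of the 5 genes passed, and 116 of all genes tested, or 16.3%, did so by limma. Groups did not overlap in 1 of the 5 genes. The share over all genes tested was 17.0% with SOD1-G85R higher and 9.97% with SOD1-G85R lower. The smallest unadjusted p among the 5 was 0.361, for Pink1. With 3 samples against 3, limma's 95% intervals of the 5 fold changes reached from -1.09 at the low end to 0.89 at the high end.

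**Figure D1:**
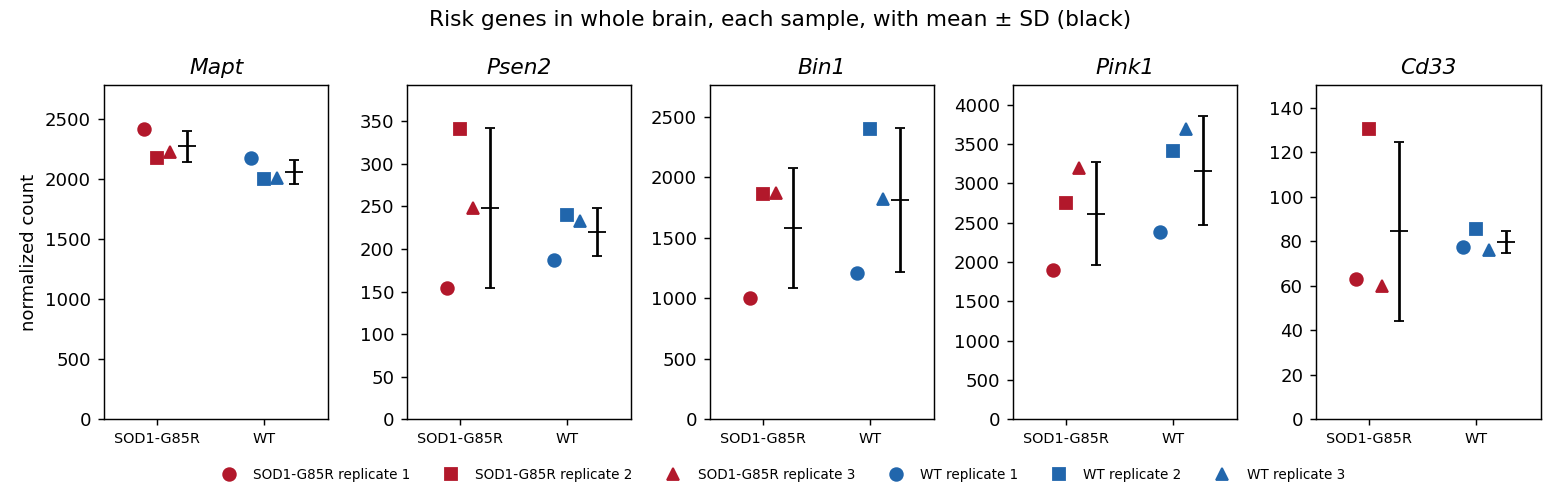
Normalized counts (vertical axes, each starting at 0 and scaled to its gene) of the 5 genes in 3 SOD1-G85R samples (left, red) and 3 WT samples (right, blue), with symbols for the replicate number and black bars for the group mean ± SD. In Mapt the groups lie close and narrow, in Psen2 and Cd33 the red square of SOD1-G85R replicate 2 lies above all others, and in Psen2, Bin1 and Pink1 the circles of replicate 1 are lowest in each group.

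Psen2 and Cd33 were the genes of the set with their highest value in SOD1-G85R replicate 2, the sample with the high interferon response list, while Pink1 was below the WT mean there (-0.18 log2 units). Psen2 lay 0.64 and Cd33 0.71 log2 units above the WT mean in that sample. These differences exceeded those of 62.4% and 64.0% of the genes tested there, so much of the panel was raised to a like degree. The bases before the start sites of these 3 genes are shown, with motifs chosen after these values were seen. RefSeq promoters of the GRCm38.p6 build were looked up for these 3 genes and for Mapt. These 3 were the ones matched, and Mapt is not shown for want of a match. The search left out the chromosome of Bin1, so Bin1 is not shown either. Each window holds the 250 bases before the start, on the minus strand and written 5′ to 3′, at chr1:180256301-180256550 for the first of the Psen2 starts listed, chr7:43533172-43533421 for Cd33 and chr4:138326297-138326546 for Pink1. Capitals mark GGAA or its reverse complement, the core bound by ETS family factors, to which the myeloid regulator PU.1 belongs.
Psen2: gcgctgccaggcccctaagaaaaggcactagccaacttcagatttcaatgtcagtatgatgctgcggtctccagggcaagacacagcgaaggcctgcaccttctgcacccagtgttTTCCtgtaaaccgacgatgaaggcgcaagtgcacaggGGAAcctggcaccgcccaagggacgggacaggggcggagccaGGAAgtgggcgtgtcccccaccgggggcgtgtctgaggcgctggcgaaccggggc
Cd33: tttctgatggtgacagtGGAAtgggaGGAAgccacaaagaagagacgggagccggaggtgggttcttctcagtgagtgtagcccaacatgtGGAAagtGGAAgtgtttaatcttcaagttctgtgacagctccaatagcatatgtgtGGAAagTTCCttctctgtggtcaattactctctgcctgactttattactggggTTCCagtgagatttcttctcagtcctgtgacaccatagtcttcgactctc
Pink1: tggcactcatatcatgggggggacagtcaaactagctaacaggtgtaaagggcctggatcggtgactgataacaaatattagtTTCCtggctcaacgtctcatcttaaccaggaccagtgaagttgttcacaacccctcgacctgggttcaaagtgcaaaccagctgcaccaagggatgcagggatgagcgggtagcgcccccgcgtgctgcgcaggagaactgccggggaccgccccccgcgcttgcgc

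The GGAA core occurred 3 times before Psen2, 7 times before Cd33 and 1 time before Pink1, counted on either strand. Before the second Psen2 start listed, not printed here, it occurred 5 times. It is common, with 93.4% of 32851 RefSeq promoter windows of that length holding it at least 1 time. That share bears on its presence, and no background was computed for the number of cores. The core of the interferon-stimulated response element, searched in a shortened form as GAAANNGAA on either strand, was found in none of these 3 windows and in 7.13% of all windows. The gamma-activated site, searched as TTCNNNGAA on either strand, was found in none of the 3 and in 7.02% of all windows. The GGAA core can overlap either of these motifs. A match is a description of letters and no match says only that these letters are not in this window.

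Mapt, the tau gene, was the steadiest of the 5. It was at 2421, 2175 and 2226 normalized counts in SOD1-G85R replicates 1, 2 and 3, against 2175, 1999 and 2006 in WT replicates 1, 2 and 3. Every SOD1-G85R sample lay above every WT sample, but the lowest of the first group exceeded the highest of the second by only 0.75 normalized counts, which is less than the 0.796 that 1 count was worth in SOD1-G85R replicate 2. Means were 2274 ± 130 in SOD1-G85R and 2060 ± 99.4 in WT (SD, n = 3 each), a difference of 10.4%. The log2 fold change was 0.14 (SE 0.17, 95% interval -0.27 to 0.56, limma, adjusted p = 0.703). The exact permutation test gave p = 0.1 (two-sided), the smallest that 3 against 3 allows. Groups did not overlap, with SOD1-G85R higher, in 17.0% of all genes tested, and with SOD1-G85R lower in 9.97%, beside 1 of the 5 risk genes. The 17.0% includes 33 genes that were under 20 in every WT sample. They passed the filter only through the SOD1-G85R samples, so the filter set their direction and lack of overlap.

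The SD of Mapt within groups was 0.075 on the log2 scale, and 1.26% of the genes tested had a smaller one, the median gene having 0.36. limma moves each gene's variance toward that of the panel, so its SE for Mapt is wider than the gene's own spread alone would give. Without SOD1-G85R replicate 2 the log2 fold change of Mapt was 0.17 (SE 0.23, limma, adjusted p = 0.769). With samples centred on their medians it was -0.065, so its direction depended on the scaling.

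**Figure D2:**
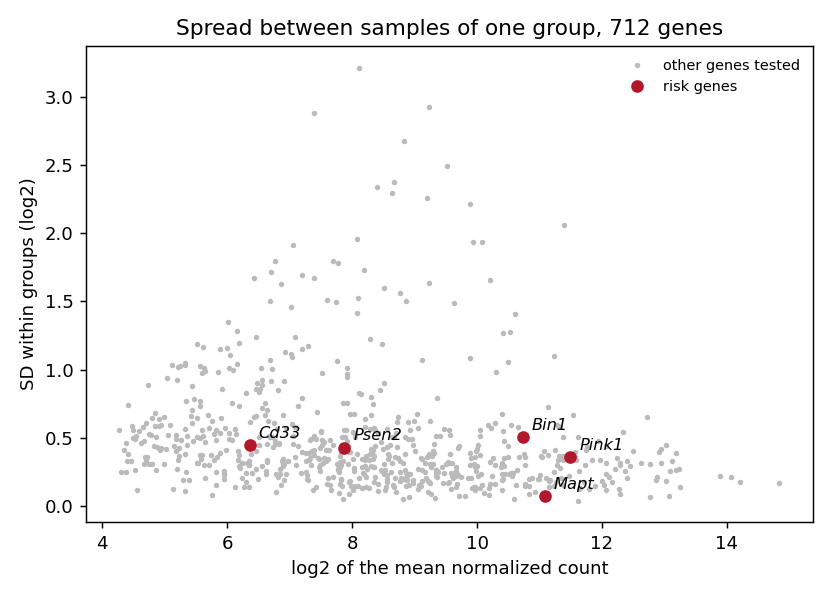
SD within groups on the log2 scale (vertical axis) against the log2 mean normalized count of the 6 samples (horizontal axis) for the 712 genes tested, with the 5 risk genes in red and named. Mapt lies near the bottom at 0.075, and the other 4 lie between 0.36 and 0.51, among the bulk of the genes.

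Mapt was also set against a list of neuronal markers, sample by sample. This comparison, and the like ones of Bin1 and Cd33 below, were added after the values of the genes and lists had been seen, so their p-values are no independent evidence. The list was split, with log2 fold changes below 0 in 4 of its 7 tested genes (the vesicular glutamate transporter gene Slc17a7 at -0.84 and the synaptic vesicle gene Syn2 at -0.54 among them) and above 0 in 3 (the beta-tubulin gene Tubb3 at 0.14, the transporter gene Slc17a6 at 0.057 and the splicing factor gene Rbfox3 at 0.056). It had a median difference from the WT mean of -0.59, -0.23 and 0.03 log2 units in SOD1-G85R replicates 1, 2 and 3, against 0.01, 0.15 and -0.11 in WT replicates 1, 2 and 3. Mapt minus that median averaged 0.41 ± 0.38 in SOD1-G85R and -0.017 ± 0.15 in WT (SD, n = 3 each, exact permutation test p = 0.1, two-sided, and 0.15 after Benjamini-Hochberg adjustment over 3 such comparisons). SOD1-G85R replicate 1 gave 0.82, against 0.31 and 0.083 in SOD1-G85R replicates 2 and 3. The means differed by 0.42, by 0.47 without SOD1-G85R replicate 2 and by 0.21 without SOD1-G85R replicate 1. Subtracting a list whose median was below the WT mean in SOD1-G85R replicates 1 and 2 raises such a difference for any gene. The lowest SOD1-G85R value was 0.083 and the highest WT value 0.072. The summed level of the 7 measured markers was 28292 to 33504 in SOD1-G85R and 35347 to 37937 in WT, and its part in the values of Mapt was not tested. The genes closest to Mapt in pattern, by the root mean square difference of mean-centred log2 values over 6 samples, were Gpr183 (0.069), an oxysterol receptor gene of immune cells at 46.3 to 62.9 normalized counts, and Tubb3 (0.084), the neuronal beta-tubulin gene.

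Of the other genes of tau phosphorylation and the neuronal cytoskeleton, 10 of 23 listed were tested. Their median log2 fold change was -0.30, with 2 positive and 8 negative, and limma called 0 of them at an adjusted p of 0.05. At an unadjusted p of 0.05 there were 2, each lower, beside 16.3% of all genes tested. Ppp3ca, a catalytic subunit of the phosphatase calcineurin, was at 8497, 7640 and 7346 in SOD1-G85R samples, against 13212, 10707 and 11043 in WT samples (log2 fold change -0.57, SE 0.19, limma, adjusted p = 0.235). The groups did not overlap. Nefl, the neurofilament light chain, was at 1618, 1477 and 1821 in SOD1-G85R samples, against 2501, 2815 and 2051 in WT samples (log2 fold change -0.58, SE 0.21, limma, adjusted p = 0.257). Fyn, a tyrosine kinase that phosphorylates tau, had a log2 fold change of -0.30 (SE 0.19), and the groups of Nefl and Fyn did not overlap either. Groups without overlap and with SOD1-G85R lower made up 9.97% of all genes tested. Without SOD1-G85R replicate 2 the list's median was -0.25. Nefl and Tubb3 are also in the list of neuronal markers, so these lists are not separate evidence.

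Psen2 varied more between SOD1-G85R samples than between WT samples. It was at 154, 342 and 249 normalized counts in SOD1-G85R replicates 1, 2 and 3, against 187, 240 and 233 in WT replicates 1, 2 and 3. The SOD1-G85R samples held the lowest, the highest and the second highest of the 6 values, so the groups overlapped. Means were 248 ± 93.6 in SOD1-G85R and 220 ± 28.5 in WT (SD, n = 3 each), with a log2 fold change of 0.11 (SE 0.32, 95% interval -0.68 to 0.89, limma, adjusted p = 0.876). The coefficient of variation was 37.7% in SOD1-G85R and 13.0% in WT, a difference in spread that was not tested, here or for Cd33 below. Counting error on the implied counts of 145 to 429 came to 4.83% to 8.30% per sample, which covers counting alone and no other technical variation. Without SOD1-G85R replicate 2 the fold change was -0.16 (SE 0.28, limma, adjusted p = 0.840), and without WT replicate 1 it was -0.0031, so leaving out either sample turned its sign. With samples centred on their medians it was -0.099, and after quantile normalization it was -0.10.

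The genes nearest to Psen2 in pattern were Pex14 (0.075), which encodes a peroxisomal import protein, and Mbd2 (0.084), which encodes a reader of methylated DNA. Each was highest in SOD1-G85R replicate 2 and lowest in SOD1-G85R replicate 1, as Psen2 was. Among other genes of amyloid precursor processing and clearance, 1 of 19 listed was measured. That gene, Apoe, encodes the main lipid carrier of the brain and is made by astrocytes and microglia. It was at 6426, 13500 and 6325 in SOD1-G85R replicates 1, 2 and 3, against 7241, 8326 and 8388 in WT replicates 1, 2 and 3. Its log2 fold change was 0.039 (SE 0.34, limma, adjusted p = 0.958), and -0.32 without SOD1-G85R replicate 2. SOD1-G85R samples thus held the highest and the lowest values, with the other 2 samples of the group below all WT samples.

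Bin1 showed the widest spread within groups of the 5 genes, 0.51 on the log2 scale. It was at 1006, 1862 and 1872 normalized counts in SOD1-G85R replicates 1, 2 and 3, against 1208, 2404 and 1823 in WT replicates 1, 2 and 3. The groups overlapped, and the low value in each came from replicate 1. Means were 1580 ± 497 in SOD1-G85R and 1812 ± 598 in WT (SD, n = 3 each), with a log2 fold change of -0.20 (SE 0.37, 95% interval -1.09 to 0.70, limma, adjusted p = 0.820). The fold change was -0.34 without SOD1-G85R replicate 2 and 0.099 without SOD1-G85R replicate 1. It was 0.034 without WT replicate 2, so 2 single samples each turned its sign. The nearest genes in pattern were Fscn1 (0.070), which encodes the actin-bundling protein fascin, and Setd1a (0.099), which encodes a histone H3 lysine methyltransferase.

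Bin1 is expressed in oligodendrocytes, among other cells, and was set against the markers of that lineage. The fold change was below 0 in all 15 oligodendrocyte markers tested (median -0.74). Of them, 9 had an unadjusted p under 0.05 by limma, beside 16.3% of all genes tested, while 0 passed at an adjusted p of 0.05. Their summed level was 28875 to 39636 normalized counts in SOD1-G85R and 55215 to 73951 in WT, with no marker at the floor in all 6 samples. In whole-brain RNA, fewer cells of a type and less RNA per cell cannot be told apart. Bin1 minus the list's median was 0.48, 0.70 and 0.71 log2 units in SOD1-G85R replicates 1, 2 and 3, against -0.22, 0.21 and 0.043 in WT replicates 1, 2 and 3. The groups did not overlap, and the means differed by 0.62 (0.63 ± 0.13 in SOD1-G85R and 0.012 ± 0.21 in WT, SD, n = 3 each, exact permutation test p = 0.1, two-sided, adjusted 0.15 over 3 comparisons). Without SOD1-G85R replicate 2 the means differed by 0.58, and leaving out any 1 of the 6 samples gave 0.50 to 0.72. The list's own median was -1.27, -0.60 and -0.61 in SOD1-G85R replicates 1, 2 and 3, against -0.31, 0.25 and 0.022 in WT replicates 1, 2 and 3. A gene unchanged in every sample would therefore also give groups that do not overlap. The gap alone therefore does not single out Bin1. Other genes were not set against this list, and the part of its fall in the gap was not tested. A p of 0.1 is the smallest that 3 against 3 allows, and this comparison too was chosen with the values known.

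**Figure D3:**
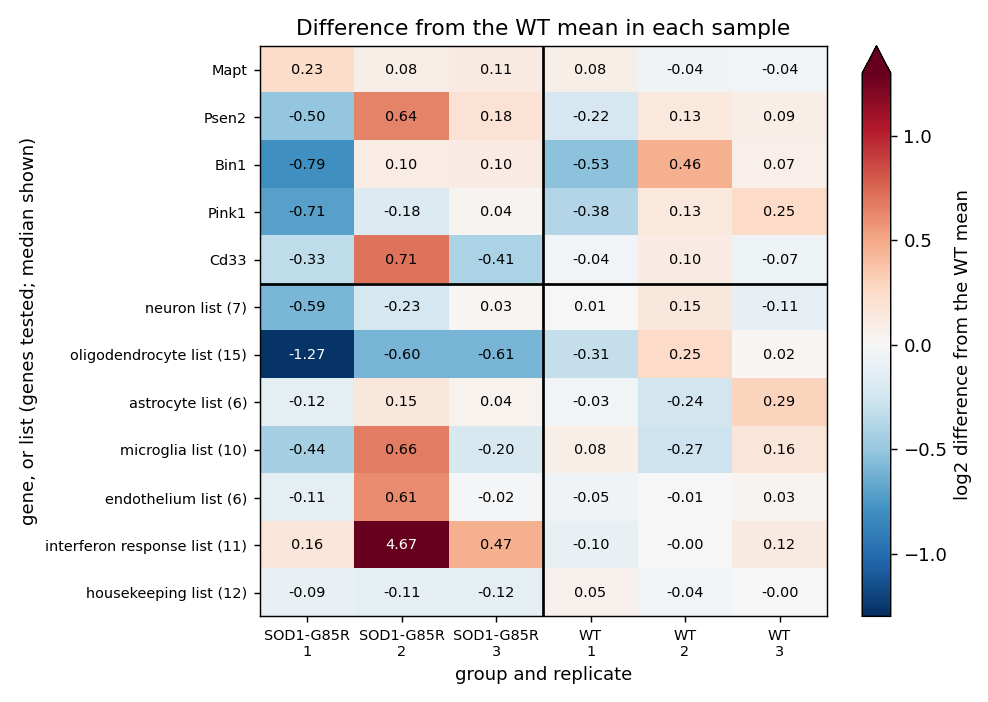
Log2 difference from the WT mean in each sample (columns, 3 SOD1-G85R samples left and 3 WT samples right) for the 5 risk genes (top rows) and for the median of 7 gene lists, with the number of genes tested in brackets (bottom rows). Colour runs from blue (lower) to red (higher) and is cut at 1.3, the interferon response median of 4.67 in SOD1-G85R replicate 2 lying beyond it. Bin1 and Pink1 are blue in replicate 1 of each group. Cd33 has the signs of the microglia and endothelium rows in the SOD1-G85R samples, and signs opposite to the microglia row in the WT samples.

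Pink1 had the largest difference in size of the 5 genes, and it did not pass the test either. It was at 1902, 2744 and 3190 normalized counts in SOD1-G85R replicates 1, 2 and 3, against 2383, 3407 and 3696 in WT replicates 1, 2 and 3. The groups overlapped, with 1 WT sample below 2 of the SOD1-G85R samples. Means were 2612 ± 654 in SOD1-G85R and 3162 ± 690 in WT (SD, n = 3 each), with a log2 fold change of -0.28 (SE 0.29, 95% interval -0.98 to 0.41, limma, adjusted p = 0.640). It was the 1 gene of the 5 whose fold change kept its sign in the 13 settings that could move it, from -0.49 to -0.071. The value nearest to 0 was the fold change without SOD1-G85R replicate 1. Without SOD1-G85R replicate 2 it was -0.34 (SE 0.31, limma, adjusted p = 0.652).

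Pink1 and Bin1 were the most alike pair among the 5, with a root mean square difference of 0.20 log2 units over 6 samples, against 0.26 to 0.50 for the other 9 pairs. Replicate 1 held the lowest value of each group in both genes and in Psen2. The nearest genes to Pink1 on the panel were closer still. They were Ak1 (0.073), the adenylate kinase gene of cellular energy balance, and Hus1 (0.090), a gene of the DNA damage checkpoint clamp.

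Of the other genes of Parkinson disease, mitophagy and autophagy, 14 of 28 listed were tested. Their median log2 fold change was -0.076, with 5 positive and 9 negative, and limma called 0 of them at an adjusted p of 0.05 and 0 at an unadjusted p of 0.05. Atg9a, a membrane protein that feeds the growing autophagosome, was at 1645, 1669 and 1686 in SOD1-G85R samples, against 2515, 2103 and 2129 in WT samples (log2 fold change -0.43, SE 0.18, limma, unadjusted p = 0.0504 and adjusted p = 0.307). The groups did not overlap. Optn, an autophagy receptor gene that is mutated in some families with amyotrophic lateral sclerosis, was at 534, 575 and 455 in SOD1-G85R samples, against 370, 437 and 419 in WT samples (log2 fold change 0.35, SE 0.19, limma, adjusted p = 0.445). These groups did not overlap either, as was so with SOD1-G85R lower in 9.97% and with SOD1-G85R higher in 17.0% of all genes tested. The 17.0% includes the 33 genes whose direction the filter set. Of 22 listed endosome and lysosome genes 5 were tested, with 3 positive, 2 negative and a median of 0.026, or -0.29 without SOD1-G85R replicate 2. Lamp1, Lamp2 and Rab7, named by rank of p in that list, had log2 fold changes of -0.20, 0.17 and -0.12, none with an unadjusted p under 0.05.

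Cd33 was uniform in WT brain and scattered in SOD1-G85R brain. It was at 62.9, 131 and 59.7 normalized counts in SOD1-G85R replicates 1, 2 and 3, against 77.5, 85.5 and 75.9 in WT replicates 1, 2 and 3. SOD1-G85R replicate 2 lay above all WT samples and the other 2 SOD1-G85R samples lay below all of them. Means were 84.4 ± 40.1 in SOD1-G85R and 79.6 ± 5.12 in WT (SD, n = 3 each), with a log2 fold change of -0.012 (SE 0.33, 95% interval -0.82 to 0.80, limma, adjusted p = 0.986). The coefficient of variation was 47.5% in SOD1-G85R and 6.43% in WT. Implied counts were 59, 164 and 42 in SOD1-G85R and 98, 85 and 95 in WT, which carry a counting error of 7.81% to 15.4% and 10.1% to 10.8%. Counting error alone was thus larger than the spread between WT samples. Without SOD1-G85R replicate 2 the fold change was -0.37 (SE 0.23, 95% interval -0.88 to 0.14, limma, unadjusted p = 0.135 and adjusted p = 0.477). After quantile normalization of all 6 samples it was -0.63 (limma, unadjusted p = 0.0386 and adjusted p = 0.600).

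**Figure D4:**
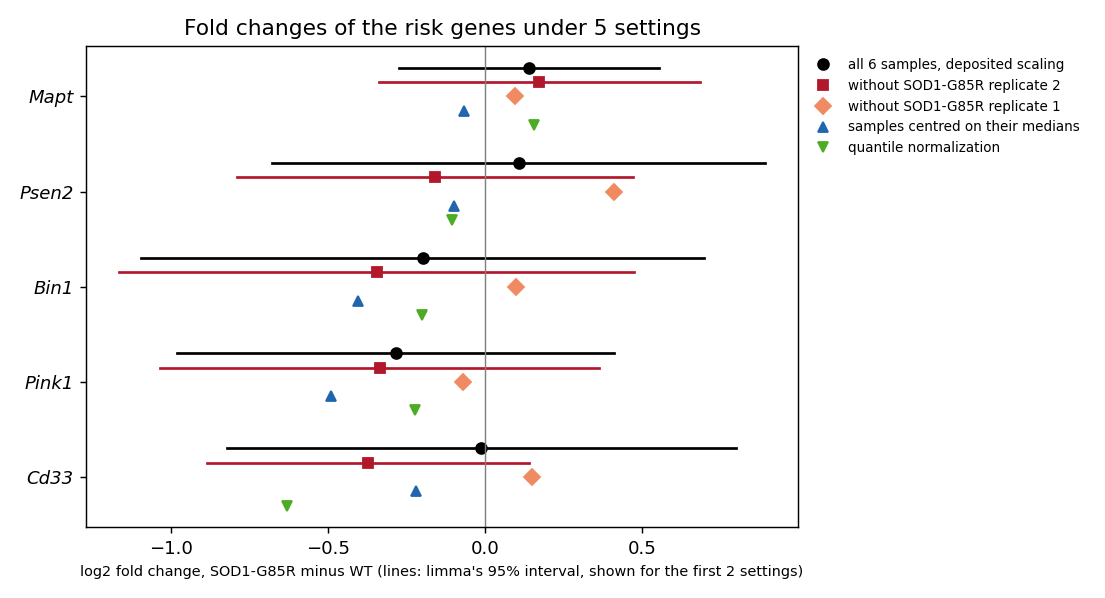
Log2 fold change of SOD1-G85R minus WT (horizontal axis) for each of the 5 genes (rows) under 5 settings, with limma's 95% interval drawn for all 6 samples (black) and without SOD1-G85R replicate 2 (red). All intervals drawn cross 0, and the points of Psen2, Bin1 and Cd33 lie on different sides of 0 depending on which sample was left out.

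Cd33 lay on the same side of the WT mean as the median of the microglia markers in each SOD1-G85R sample, and on the opposite side in each WT sample. The medians of the endothelium list (-0.11, 0.61 and -0.017 in SOD1-G85R replicates 1, 2 and 3) had the same signs. The microglia list was split, with 4 fold changes above 0 and 6 below. In SOD1-G85R replicate 2, P2ry12, Fcrls and Gpr34 were at their lowest of the group, and Cd68, Cx3cr1 and Tmem119, among others, at their highest. The median difference of 10 tested microglia markers (10 of 14 listed were measured) from the WT mean was -0.44, 0.66 and -0.20 log2 units in SOD1-G85R replicates 1, 2 and 3, against 0.08, -0.27 and 0.16 in WT replicates 1, 2 and 3. Cd33 itself was at -0.33, 0.71 and -0.41 in SOD1-G85R replicates 1, 2 and 3, against -0.036, 0.10 and -0.066 in WT replicates 1, 2 and 3. Cd33 minus the list's median averaged -0.020 ± 0.16 in SOD1-G85R and 0.0086 ± 0.32 in WT (SD, n = 3 each, exact permutation test p = 1, two-sided, adjusted 1 over 3 comparisons). The means differed by -0.029, and by -0.061 without SOD1-G85R replicate 2. Leaving out any 1 of the 6 samples gave -0.15 to 0.15. The markers' summed level was 3117 to 5763 in SOD1-G85R and 3402 to 5075 in WT, with no marker at the floor in all 6 samples. The summed level of a list drawn up for monocytes and granulocytes (6 of 10 listed were measured) was 416 to 5795 in SOD1-G85R and 266 to 375 in WT. The highest was that of SOD1-G85R replicate 2, where Ly6a alone gave 5388. That sum was thus mostly 1 gene and was not read as a measure of those cells. The part of either in the values of Cd33 was not tested. The genes nearest to Cd33 in pattern were Apoe (0.078), described above, and Itgb5 (0.11), an integrin beta subunit gene. The 250 bases before the start of Cd33 held 7 GGAA cores, the most of the 3 windows printed, a number with no background to set it against.

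Of the other microglial risk genes and relatives of Cd33 in the Siglec family, 10 of 17 listed were tested. Their median log2 fold change was 0.77, with 9 positive and 1 negative, and it was 0.11 without SOD1-G85R replicate 2. limma called 0 of them at an adjusted p of 0.05, while 3 had an unadjusted p under 0.05, all higher, beside 16.3% of all genes tested. Of these 3, Siglecf and Siglec1 were under 20 in every WT sample and passed the filter only through the SOD1-G85R samples, so their direction was set by the filter. Without these 2 genes, 8 were tested, 7 positive and 1 negative, with a median of 0.65 and 1 unadjusted p under 0.05, and the median was -0.053 when SOD1-G85R replicate 2 was left out as well. Siglecf, a receptor of eosinophils in mice, was at 27.7, 43.0 and 61.1 in SOD1-G85R samples, against 19.0, 15.1 and 16.8 in WT samples (log2 fold change 1.26, SE 0.31, limma, adjusted p = 0.200). Siglec1, the sialoadhesin gene of macrophages, was at 20.2, 143 and 36.9 in SOD1-G85R samples, against 9.49, 16.1 and 14.4 in WT samples (log2 fold change 1.80, SE 0.70, limma, adjusted p = 0.283). Ms4a4a, at a human risk locus for Alzheimer disease, was at 49.0, 69.3 and 55.4 in SOD1-G85R samples, against 39.6, 24.1 and 36.0 in WT samples (log2 fold change 0.80, SE 0.26, limma, adjusted p = 0.235). Its groups did not overlap, as was so with SOD1-G85R higher in 17.0% of all genes tested. That share includes the 33 genes whose direction the filter set.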

How the data were processed

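Whole-brain RNA of 3 SOD1-G85R and 3 WT samples was measured with NanoString, per the labels' protocols. The authors deposited a table of signal values with a row for each gene, named normalized counts in the text. The software behind the scaling is not given in the sources used here. In each sample, 100% of values above the lowest one were whole multiples of 1 step within 0.05 step, so that counts were scaled by 1 factor per sample. The lowest value, 7.85 to 11.4 in SOD1-G85R and 8.05 to 13.4 in WT, was shared by 10 to 59 genes and read as a floor. Because of this floor, tests for raw counts were not used.

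Values were taken as log2(value + 1). The test took the 712 of 770 genes that exceeded 20 in 3 or more samples. SOD1-G85R was compared with WT by a two-sided limma fit (version 3.58.1, lmFit and eBayes, R 4.3.3) without covariates, p-values were adjusted by Benjamini-Hochberg over all 712 genes, and the threshold was 0.05. The fit was tested on data with known answers. Single values were compared by exact permutation tests. Named were all members, the 3 genes of smallest p in each pathway list and the 2 genes nearest to each member in pattern. A result that this rule named is not reported here. Members and lists were chosen with earlier results of these data known. Alternatives were other scalings, filters, pseudocounts, variance models and sample weights, the replicate number as a block, and leaving out each sample, with a term for Uty signal added after seeing the data. The comparisons of Mapt, Bin1 and Cd33 with marker lists and the motif search were also added after the values had been seen. No 2 samples were duplicates, chi-square on the implied counts being at least 22.5 per degree of freedom. Figures were drawn with matplotlib 3.10.9.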

Additional observations from a re-analysis of the deposited data

How the results depend on the processing

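The number of genes called by limma was 0 in 15 of the 17 other fits. It was 52 with sample weights, 47 of them higher, in a fit whose weight estimation stopped before it converged, and 0 to 10 when a sample was left out, the 10 coming without SOD1-G85R replicate 2. None of the 5 risk genes was among these calls, and 116 genes had an unadjusted p of 0.05. The signs of 4 risk genes changed. Mapt was at -0.065 with samples centred on their medians. Psen2 was at -0.099 under that centring and at -0.10 under quantile normalization, and Cd33 was at 0.18 with the term for Uty signal. Leaving out each sample gave log2 fold changes of 0.096 to 0.18 for Mapt, -0.16 to 0.41 for Psen2, -0.46 to 0.099 for Bin1, -0.47 to -0.071 for Pink1 and -0.37 to 0.19 for Cd33. Psen2 was at -0.0031 without WT replicate 1, Bin1 at 0.034 without WT replicate 2, and Cd33 at 0.040 without WT replicate 2, 0.15 without SOD1-G85R replicate 1 and 0.19 without SOD1-G85R replicate 3. Leaving out a sample changes which values enter the mean, and the cause of the other changes was not tested. With the replicate number as a block, 0 genes were called, and the fold changes of the 5 genes were 0.14 for Mapt, 0.11 for Psen2, -0.20 for Bin1, -0.28 for Pink1 and -0.012 for Cd33. The SE was smaller in each of the 5 genes, most so in Bin1 (0.16 against 0.37) and Pink1 (0.13 against 0.29). For Pink1 limma's unadjusted p was 0.105 with the block (adjusted p = 0.320), against 0.361 without it. Pink1 was lower in SOD1-G85R than in WT at each replicate number. Deviations from group means correlated at 0.23, 0.088 and 0.0999 between samples of the same number. Of the 2 samples of each number, 2, 1 and 0 had their best match in the other group at their own number, for replicates 1, 2 and 3. The numbers were not taken as pairs, and whether they mark a pairing cannot be told from the labels. Over all genes tested the median fold change was 0.15 in the deposited scaling, -0.059 after median centring and -0.099 under quantile normalization. Pseudocounts of 0.5 and 10 changed no sign. The 2 filter settings, the replicate block and the trended variance leave a fold change as it is by construction and bear only on its p. The implied counts of Cd33, 42 to 164, were the lowest of the 5 genes.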
